A study of Mus musculus with 12 samples.

Results

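The genes described here encode the subunits of the oxidative phosphorylation machinery, measured in alveolar macrophages of mouse lungs that were naive or had been reperfused in a transplant model. Members were taken by gene symbol from the protein-coding genes of the annotation: the Ndufa, Ndufb, Ndufc, Ndufs and Ndufv genes of complex I, the Uqcr genes of complex III, the Cox4 to Cox8 genes of complex IV, the Atp5 genes of complex V, and the mt- genes of the mitochondrial genome. The rule found 93 of the 43430 genes in the deposited table. Of these, 80 are nuclear-encoded (37 for complex I, 8 for complex III, 18 for complex IV and 17 for complex V) and 13 are mitochondrially encoded (7 for complex I, 1 for complex III, 3 for complex IV and 2 for complex V). The rule uses symbols alone and no measured value. The test took genes that reached 1 RPKM in 4 or more of the 12 libraries, which left 88 members, 75 nuclear-encoded genes and all 13 mt- genes.

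Oxidative phosphorylation takes electrons from NADH at complex I and from succinate at complex II, passes them through complex III and cytochrome c to oxygen at complex IV, and uses the proton gradient built on the way to drive ATP synthase, complex V. Complexes I, III, IV and V are assembled from subunits of both genomes: the mitochondrial genome supplies a few hydrophobic core subunits, and the nuclear genome supplies the rest, which are made in the cytosol and imported. Alveolar macrophages live in the airspaces, clear particles and surfactant, and are known for a metabolism that leans on lipid oxidation in mitochondria.

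The libraries form groups of 4, and all came from lung alveolar macrophages of male mice aged 14 weeks of the genotype Cx3cr1gfp/+B6, a strain in which a copy of the Cx3cr1 gene is replaced by a green fluorescent protein. The groups were naive mice and transplant-model mice at 2 h and at 24 h after reperfusion. The term Allo stands in the titles of the libraries at both times without an explanation, so in the comparisons with naive mice, transplantation, reperfusion and any other feature that both transplant groups share cannot be told apart. Polyadenylated RNA was sequenced from small samples (PicoPure kit), and since no label ties the libraries to different animals, the p-values measure a spread between libraries that may be technical.

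The totals behind the RPKM values were 6112586 to 8796071 reads in naive libraries, 7242824 to 10347265 at 2 h and 9129420 to 11997945 at 24 h. Every 24 h library was thus deeper than every naive library, and the part of depth in the differences at 24 h was not tested. All 12 alveolar macrophage markers on the list were expressed, with a summed level of 11327 to 11790 RPKM in naive libraries, 7941 to 9064 at 2 h and 9335 to 11342 at 24 h. At 24 h 2 of these markers rose and 7 fell against naive. Summed markers of other cells were lower at 24 h than in naive libraries for epithelium (23.2 to 33.6 against 56.1 to 61 RPKM), lymphocytes (1.01 to 2.17 against 6.03 to 9.98) and monocytes or interstitial macrophages (1.9 to 3.65 against 7.65 to 10.6). They were higher for neutrophils (32.1 to 38.4 against 15.5 to 21.8, with Elane at 0 in all libraries). Of the 3 neutrophil markers tested, however, 1 rose and 1 fell at 24 h, and of the 3 epithelial markers tested 1 fell. The 2 lymphocyte and 4 monocyte or interstitial macrophage markers tested all fell. Of all genes tested, 25.3% were called higher and 20.6% lower at 24 h. At 2 h the summed markers were also lower than naive for monocytes or interstitial macrophages (1.26 to 2.77 RPKM) and lymphocytes (2.34 to 5.05). The sums overlapped with naive for epithelium (47.5 to 67.3) and neutrophils (14.9 to 23.7). The 2 h libraries also stood apart by 38 genes that had a mean RPKM of at least 2 there and at most 5% of it in naive libraries, while the reverse was found for 0 genes. One of them was the pseudogene H2-Ea-ps, at 0 to 0.184 RPKM in naive libraries, 19.3 to 27.1 at 2 h and 1.48 to 5.2 at 24 h. The part of these differences in the results below was not tested, and in bulk RNA fewer cells of a type and less RNA per cell cannot be told apart.

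At 24 h after reperfusion, nuclear-encoded subunits of all 4 complexes were higher than in naive macrophages. Of 75 tested nuclear-encoded members, 64 rose, 3 fell and 8 did not pass (limma, adjusted p under 0.05), while 25.3% of all 11419 genes tested were called higher and 20.6% lower, 45.9% in either direction. The median log2 fold change of the nuclear-encoded members was 0.42, against 0.00 for all genes tested. In 59 members every 24 h library was above every naive library, which held for 25.8% of all genes tested, and in 3 every 24 h library was below, which held for 22%. In complexes I, III and V, where 0 members were called lower, 0 were lower at an unadjusted p under 0.05 and 0 with voom. Reads of nuclear-encoded members made up 0.573 to 0.612% of all reads in naive libraries, 0.566 to 0.591% at 2 h and 0.763 to 0.834% at 24 h. The naive and 2 h shares overlapped, and both lay below the 24 h shares.

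**Figure D1:**
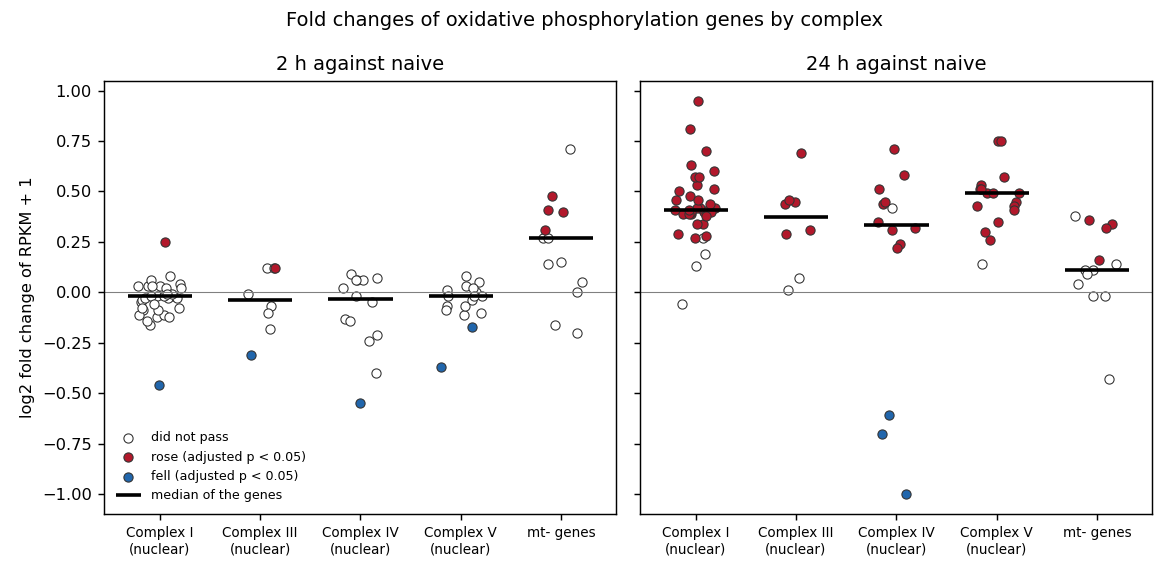
Log2 fold change of RPKM + 1 (vertical axis) of each tested gene at 2 h and at 24 h against naive, by complex for nuclear-encoded genes and for the 13 mt- genes. Filled points passed an adjusted p of 0.05 in limma, open points did not, and bars are medians. Nuclear-encoded genes mostly lie near 0 at 2 h and above it at 24 h, when 3 complex IV genes were called lower.

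Complex I oxidises NADH and is the largest of the complexes. Of its 36 tested nuclear-encoded subunits 32 rose at 24 h, 0 fell and 4 did not pass, with a median log2 fold change of 0.41. Among the core subunits, which carry the flavin and the iron-sulphur clusters, Ndufv1, the flavin-binding subunit, rose by 0.40 ± 0.05, Ndufs1 by 0.41 ± 0.05 and Ndufs8 by 0.42 ± 0.09 (log2 fold change ± SE). Exons of Ndufs1 overlap those of the more highly expressed Eef1b2, which reached 33.5 RPKM, on the opposite strand. The 29 accessory subunits had a median of 0.42. The largest rise was that of Ndufa5, an accessory subunit of the peripheral arm. Its RPKM was 9.8, 8.69, 9.08 and 10.1 in the naive libraries, 9.7, 10, 11.4 and 8.91 at 2 h, and 19.6, 21.1, 16.7 and 19.3 at 24 h. Every 24 h library lay above every other library, and naive and 2 h libraries overlapped. Its log2 fold change at 24 h was 0.95 ± 0.08 (SE; limma adjusted p = 3.09e-06), a ratio of means of 2.04.

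Ndufa12, an accessory subunit that sits close to the iron-sulphur core, went from 7.7 to 9.75 RPKM in naive libraries to 13.6 to 18.6 at 24 h, a log2 fold change of 0.81 ± 0.09 (limma adjusted p = 3.52e-05). Ndufb6, an accessory subunit of the membrane arm, went from 23.3 to 28.4 RPKM to 37.9 to 44.1, a log2 fold change of 0.70 ± 0.07 (limma adjusted p = 7.3e-06). Neither gene's naive and 24 h libraries overlapped. Exons of Ndufb6 overlap those of Smim27, which reached 11.3 RPKM, on the opposite strand, and 33 members have exons that overlap those of another gene that reached 1 RPKM. The strand setting of the counts is not stated, so reads of such pairs cannot be told apart. Ndufa4, named after complex I and since placed in complex IV by structural work, had 159 to 178 RPKM in naive libraries and 220 to 251 at 24 h (0.53 ± 0.05, limma adjusted p = 1.07e-05). The subunits that did not pass were Ndufa2 (0.27 ± 0.11), Ndufa1 (0.19 ± 0.08), Ndufa7 (0.13 ± 0.07) and Ndufa6 (-0.06 ± 0.06). Ndufa6, an accessory LYR-motif subunit of the peripheral arm, had 73.5, 69.8, 74.2 and 71 RPKM in naive libraries and 70, 70, 65.4 and 70.8 at 24 h, so that its groups overlapped. Ndufa4l2, a paralogue of Ndufa4 known to be induced by hypoxia, was not tested and did not exceed 0.237 RPKM in any library.

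Complex III moves electrons from ubiquinol to cytochrome c. Of its 8 nuclear-encoded members 6 rose at 24 h, 0 fell and 2 did not pass, with a median of 0.38. Uqcrq, a small subunit bound to cytochrome b, had the largest rise, from 13.8, 14.6, 15.5 and 17.8 RPKM in naive libraries to 24.1, 28.8, 26.4 and 22.9 at 24 h, with 15.4 to 19.3 at 2 h. All 24 h libraries were above all others, and its log2 fold change against naive was 0.69 ± 0.10 (limma adjusted p = 0.000112). The core proteins Uqcrc1 (0.46 ± 0.06) and Uqcrc2 (0.29 ± 0.04) rose as well. Uqcrfs1, the Rieske iron-sulphur protein that is a catalytic subunit of the complex, had 58.5 to 67.8 RPKM in naive libraries, 65.6 to 70.9 at 2 h and 62.8 to 70.2 at 24 h. Its log2 fold change at 24 h was 0.07 ± 0.06 (limma adjusted p = 0.378), and that of Uqcrh, the hinge protein, was 0.01 ± 0.07 (adjusted p = 0.893). Both genes' groups overlapped.

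Complex IV reduces oxygen to water. It was the complex with changes in both directions at 24 h: of 14 tested nuclear-encoded members 10 rose, 3 fell and 1 did not pass, with a median of 0.34. Cox5b, a zinc-binding subunit on the matrix side, rose from 19, 17.6, 16.8 and 20.2 RPKM in naive libraries to 31.9, 33.8, 27.4 and 29.8 at 24 h, with 18.5 to 20.6 at 2 h. The 24 h libraries lay above all others, and the log2 fold change was 0.71 ± 0.07 (limma adjusted p = 1.13e-05). Cox7a2, the isoform of subunit 7a made in most tissues, rose from 60.6 to 66.3 RPKM to 89.5 to 105 (0.58 ± 0.06, limma adjusted p = 1.04e-05). Cox4i1, the common isoform of the regulatory subunit 4, rose by less, from 55.3 to 67.4 RPKM to 65.6 to 74.6 (0.24 ± 0.06, limma adjusted p = 0.0079), and its naive and 24 h libraries overlapped.

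Cox7a2l was an abundant member that fell. It encodes a protein related to subunit 7a that joins complexes III and IV into supercomplexes, and C57BL/6 mice are known to carry a shortened form of it. Its RPKM was 64.9, 69.1, 69.8 and 72.2 in naive libraries, 68, 52.5, 49.2 and 70.9 at 2 h, and 48.1, 37.9, 47.2 and 47.1 at 24 h. Every 24 h library was below every other library, while the 2 h libraries spread from values within the naive range to values well below it. Its log2 fold change was -0.61 ± 0.12 at 24 h against naive (limma adjusted p = 0.00117), -0.40 ± 0.12 at 24 h against 2 h (adjusted p = 0.0129) and -0.21 ± 0.12 at 2 h against naive (adjusted p = 0.175). The paralogue Cox7a2 rose in the same libraries, as given above, and no other gene's exons overlap those of Cox7a2l in the annotation.

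The other members that fell are isoforms of complex IV subunits that are best known from single tissues. Of 7 such isoforms 3 were tested, and of these 0 rose at 24 h, 2 fell and 1 did not pass. Of all genes tested, 25.3% were called higher and 20.6% lower. Cox6b2, the testis isoform of subunit 6b, had 6.32, 5.39, 5.93 and 5.57 RPKM in naive libraries, 4.52, 3.63, 2.79 and 3.79 at 2 h, and 3.52, 1.95, 3.84 and 3.75 at 24 h. All naive libraries were above all others, and it fell at both times. The log2 fold changes were -0.55 ± 0.15 at 2 h (limma adjusted p = 0.0158) and -0.70 ± 0.15 at 24 h (adjusted p = 0.00304). The length behind its RPKM was 4262 bases against 1108 bases of annotated exons. Such mismatches were not particular to Cox6b2. The length was also longer for Atp5b (7871 against 4237 bases) and Cox7a2l (2225 against 1478), and shorter for Cox5a (690 against 2101). Cox6a2, the heart and muscle isoform of subunit 6a, was near the detection limit, with 4 to 8 reads in each naive library, 1 to 6 at 2 h and 0 to 4 at 24 h. Its fall at 24 h (-1.0 ± 0.20, limma adjusted p = 0.00178) rests on those few reads, and its exons overlap those of Itgad on the opposite strand, from which its reads cannot be told apart because the strand setting of the counts is not stated. Cox7a1, the heart and muscle isoform of subunit 7a, had 4.94 to 6.87 RPKM in naive libraries and 5.42 to 12.2 at 24 h (0.42 ± 0.23, limma adjusted p = 0.166). Cox4i2, the lung isoform of subunit 4, and Cox8b did not exceed 0.662 RPKM in any library, and Cox7b2 and Cox8c were listed at 0 in all of them.

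Complex V is the ATP synthase. Of its 17 nuclear-encoded members 16 rose at 24 h, 0 fell and 1 did not pass, with a median of 0.49. The 5 subunits of the catalytic F1 head (Atp5a1, Atp5b, Atp5c1, Atp5d and Atp5e) all rose, by 0.26 to 0.53, as did the 3 genes for the subunit of the rotating c ring (Atp5g1, Atp5g2 and Atp5g3, 0.49 to 0.57) and the 4 genes of the peripheral stalk (Atp5f1, Atp5h, Atp5j and Atp5o, 0.43 to 0.75). Atp5b, the catalytic beta subunit, had 97.8, 95.8, 95.6 and 98.2 RPKM in naive libraries, 98.6, 97.7, 96.6 and 96 at 2 h, and 137, 144, 136 and 129 at 24 h. Its naive and 2 h libraries lay within a narrow band below all 24 h libraries, and its log2 fold change at 24 h was 0.49 ± 0.04 (limma adjusted p = 1.39e-06). The largest rises were those of Atp5k, the e subunit of the membrane part (from 21.1 to 27.4 RPKM to 34.7 to 46.4, 0.75 ± 0.10, limma adjusted p = 0.000112), and Atp5o, the stalk subunit that confers oligomycin sensitivity (from 13.4 to 14.6 RPKM to 22.4 to 27.7, 0.75 ± 0.07, limma adjusted p = 8.3e-06). For both genes all 24 h libraries were above all others, and naive and 2 h libraries overlapped. The exons of Atp5o overlap those of D430001F17Rik, which reached 16.5 RPKM, on the opposite strand. Atp5s, a coupling factor outside the core enzyme, did not pass at 24 h (0.14 ± 0.10, limma adjusted p = 0.31). Atp5l passed with a wide error (0.41 ± 0.15, adjusted p = 0.0378), and 7 annotated copies of at least 90% identity to it, 6 of them processed pseudogenes, could share its reads.

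**Figure D2:**
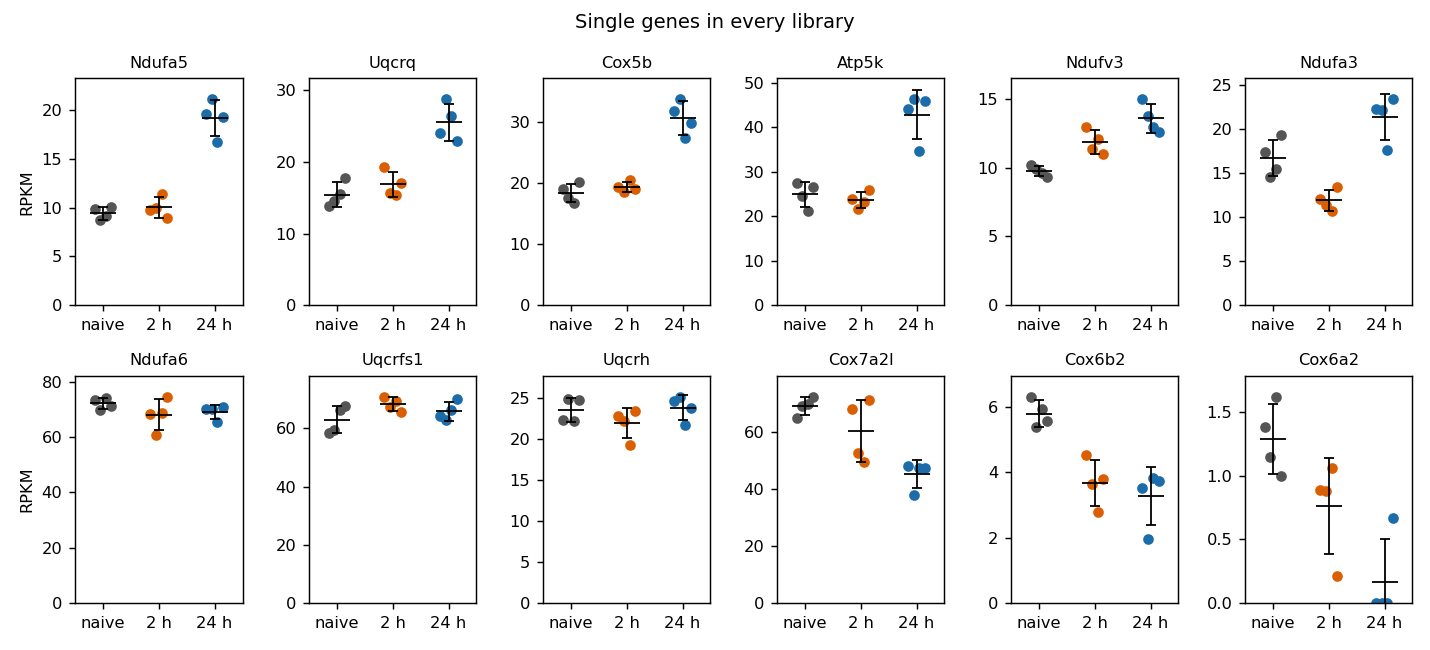
RPKM (vertical axes, from 0) of 12 nuclear-encoded genes in every library of the naive, 2 h and 24 h groups, with bars for the mean and SD of 4 libraries. Ndufa5, Uqcrq, Cox5b and Atp5k are higher in all 24 h libraries than in all others, Cox7a2l is lower in all of them, and Ndufa6, Uqcrfs1 and Uqcrh overlap between groups.

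At 2 h after reperfusion few nuclear-encoded subunits differed from naive. Of the 75 tested, 2 rose, 5 fell and 68 did not pass, against 14.7% of all genes tested called higher and 22% called lower, and the median log2 fold change was -0.02 against -0.04 for all genes. The median was -0.02 for complex I, -0.04 for complex III, -0.04 for complex IV and -0.02 for complex V. Ndufa3, an accessory complex I subunit, fell at 2 h and rose at 24 h. Its RPKM was 17.4, 14.6, 15.5 and 19.3 in naive libraries, 12.1, 11.4, 10.7 and 13.4 at 2 h, and 22.3, 22.2, 17.6 and 23.4 at 24 h. All 2 h libraries were below all others, with a log2 fold change of -0.46 ± 0.10 (limma adjusted p = 0.00569), while naive and 24 h libraries overlapped and the rise (0.34 ± 0.10, adjusted p = 0.02) did not pass when naive replicate 2 or 3 or 24 h replicate 1, 2 or 4 was left out. Its exons overlap those of Tfpt on the opposite strand.

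Uqcr10, a small complex III subunit, had 28.5, 27.7, 29.4 and 29.2 RPKM in naive libraries, 26.8, 19.7, 24.4 and 21.3 at 2 h, and 39, 33.6, 34.1 and 36.7 at 24 h. The groups did not overlap, and it fell by 0.31 on the log2 scale at 2 h (SE 0.08, limma adjusted p = 0.0127) and rose by 0.31 at 24 h (SE 0.08, adjusted p = 0.00995). Atp5s fell at 2 h (-0.37 ± 0.10, limma adjusted p = 0.0161), from 2.16 to 3.19 RPKM to 1.37 to 2.27, with overlapping libraries. The call for Atp5e, the epsilon subunit of the F1 head (-0.17 ± 0.06, limma adjusted p = 0.0437), was lost in 14 of 25 other settings. Cox6b2, described above, was the remaining member that fell. Ndufv3, a small flavoprotein subunit of complex I, rose at both times: 10.2, 9.92, 9.64 and 9.31 RPKM in naive libraries, 13, 11.4, 12.1 and 11 at 2 h, and 15, 13.8, 13 and 12.6 at 24 h. Naive libraries lay below all others, with log2 fold changes of 0.25 ± 0.06 at 2 h (limma adjusted p = 0.0103) and 0.44 ± 0.06 at 24 h (adjusted p = 0.0002). Uqcrc2 also passed at both times, but its call at 2 h (0.12 ± 0.04, limma adjusted p = 0.0442) was lost in 17 of 25 other settings.

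Between 2 h and 24 h, 68 of 75 nuclear-encoded members rose, 2 fell and 5 did not pass, where 30.9% of all genes tested were called higher and 21.5% lower at 24 h than at 2 h. These counts use the same 24 h libraries as the comparison with naive. The medians were 0.44 for complex I (34 of 36 rose), 0.49 for complex III (6 of 8), 0.36 for complex IV (11 of 14) and 0.50 for complex V (17 of 17), against 0.05 for all genes. Cox7a2l and Cox6a2 fell, the latter with a call that was lost in 9 of 24 other settings. In 65 members all 24 h libraries were above all 2 h libraries, which held for 27.5% of all genes tested.

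The mt- genes encode the core subunits made inside mitochondria, transcribed from both strands of the mitochondrial genome as long precursors. The gene length behind their RPKM equals their annotated length, so their levels can be set side by side per length, which was not done for nuclear-encoded genes. In naive libraries mt-Co1, the catalytic subunit of complex IV, was highest at 2226 to 2566 RPKM, followed by mt-Cytb, cytochrome b of complex III, at 1665 to 1929. Next came mt-Nd1, a membrane subunit of complex I, at 1200 to 1481 and mt-Atp8, a small subunit of the membrane part of complex V, at 1134 to 1551, which overlapped each other. The other complex I subunits followed, mt-Nd2 at 870 to 1082, mt-Nd6 at 651 to 890, mt-Nd5 at 597 to 729 and mt-Nd4 at 511 to 566, with mt-Nd6 overlapping both neighbours in this order and mt-Nd5 and mt-Nd4 apart. The remaining genes were far lower: mt-Co2 at 15 to 21.3 RPKM, mt-Atp6 at 2.55 to 7.93, mt-Nd3 at 3.46 to 5.17, mt-Nd4l at 1.15 to 5.51 and mt-Co3 at 1.74 to 2.09. In reads these were 77 to 97 for mt-Co2 and 3 to 33 for the other 4 genes in a naive library, against 24234 to 30253 for mt-Co1.

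Those 5 low genes share a feature that the levels did not define. Each has an annotated unprocessed pseudogene on chromosome 1 (Gm28661 for mt-Co2, Gm10925 for mt-Atp6, Gm28437 for mt-Co3, Gm28438 for mt-Nd3 and Gm10222 for mt-Nd4l) whose sequence aligned to it without a difference over 681, 678, 783 and 294 bases for mt-Co2, mt-Atp6, mt-Co3 and mt-Nd4l, and with 1 difference over 345 bases for mt-Nd3. mt-Nd4, the lowest of the other mt- genes, has such a copy (Gm28439) over 876 of its 1378 bases. Together these copies span chr1:24611535-24615565 of the mm10 build, on the minus strand. mt-Atp8 lies between mt-Co2 and mt-Atp6 on the mitochondrial genome and overlaps the start of mt-Atp6. In the 233 bases between the copies of mt-Co2 and mt-Atp6 (chr1:24614652-24614884) no gene is annotated. Copies were searched among annotated transcripts only, so a copy of mt-Atp8 in that interval was not looked for. mt-Atp8, at 1134 to 1551 RPKM in naive libraries, is therefore counted below among the genes without an annotated copy. mt-Co1 has a more distant copy, Gm13340 on chromosome 2, with 37 differences over 1545 bases. Reads that align equally well to more than 1 place are often left uncounted, but their handling is not stated in the sources used here, and its part in the low values was not tested. The starts of mt-Nd3 and of mt-Co1 are shown with those of their copies, because these pairs carry the difference between a near-identical and a distant copy. Positions count from 1 at the 5′ end of the gene, sequences run 5′ to 3′ along the gene, and capitals mark the bases that differ (T3C for mt-Nd3, C54A and A60G for mt-Co1, with the base of the mt- gene first).
mt-Nd3: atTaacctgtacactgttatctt
Gm28438: atCaacctgtacactgttatctt
mt-Co1: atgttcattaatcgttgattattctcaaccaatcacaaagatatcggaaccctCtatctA
Gm13340: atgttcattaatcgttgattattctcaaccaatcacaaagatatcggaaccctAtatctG

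**Figure D3:**
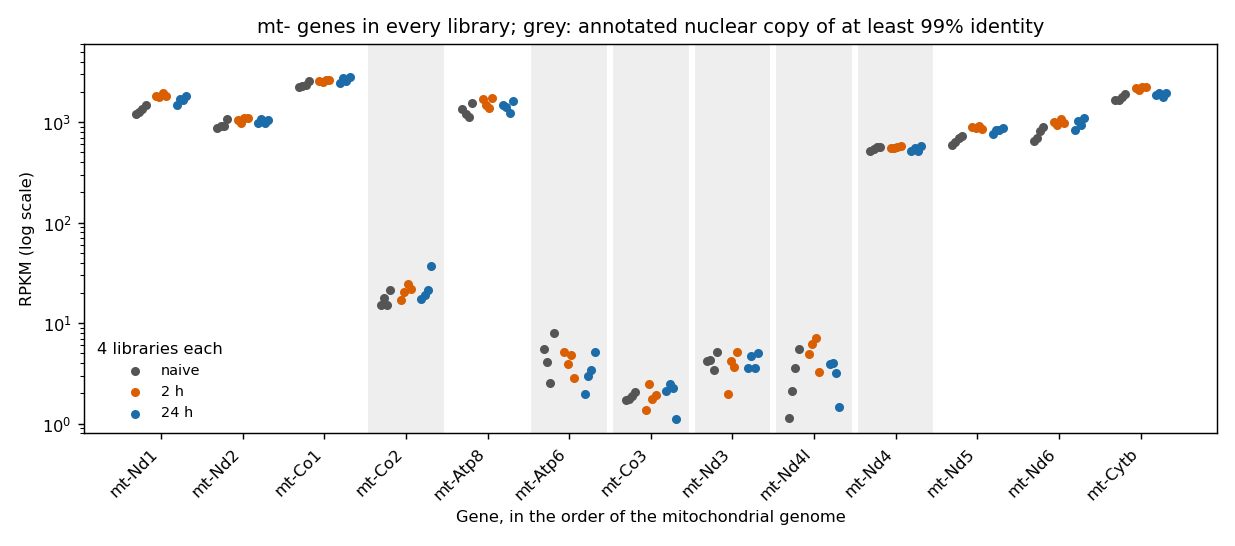
RPKM on a log scale (vertical axis) of the 13 mt- genes in the 4 libraries of each group, in the order of the mitochondrial genome. Grey bands mark the 6 genes with an annotated nuclear copy of at least 99% identity, 5 of which lie below 40 RPKM in every library while the 7 genes without one lie above 500.

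At 2 h 4 of 13 mt- genes rose, 0 fell and 9 did not pass, where 14.7% of all genes tested were called higher, with a median log2 fold change of 0.27 against -0.04 for all genes tested. mt-Nd1 had 1200, 1250, 1357 and 1481 RPKM in naive libraries, 1807, 1782, 1949 and 1830 at 2 h, and 1476, 1715, 1658 and 1834 at 24 h. All 2 h libraries were above all naive libraries, the 24 h libraries reached into both groups, and the log2 fold change at 2 h was 0.48 ± 0.07 (limma adjusted p = 0.000565). mt-Nd5 had 597, 639, 690 and 729 RPKM in naive libraries, 890, 868, 917 and 852 at 2 h, and 756, 837, 831 and 881 at 24 h, so that all naive libraries were below all others. Its log2 fold changes were 0.41 ± 0.06 at 2 h (limma adjusted p = 0.000544) and 0.32 ± 0.06 at 24 h (adjusted p = 0.00153). mt-Nd6, the subunit encoded on the opposite strand to the other mt- genes, had 651 to 890 RPKM in naive libraries and 939 to 1078 at 2 h (0.40 ± 0.10, limma adjusted p = 0.00988). Its annotated end overlaps that of mt-Nd5, which reached 917 RPKM, on the opposite strand. The strand setting of the counts is not stated, so reads from either strand across mt-Nd6 cannot be told apart in any group. mt-Cytb had 1665, 1665, 1774 and 1929 RPKM in naive libraries, 2164, 2075, 2256 and 2235 at 2 h, and 1869, 1945, 1794 and 1964 at 24 h. Its 2 h libraries stood above all others, with a rise of 0.31 ± 0.05 at 2 h (limma adjusted p = 0.000834) that did not pass under quantile normalisation, and a fall of 0.21 on the log2 scale from 2 h to 24 h (SE 0.05, adjusted p = 0.00539), which was 0.03 with the sign turned under quantile normalisation.

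The number of mt- genes called at 2 h depended on naive replicate 4, the shallowest library, in which each of the 13 mt- genes was highest among the naive libraries. Without it 8 of 13 rose, and with median-ratio scaling 7 did. mt- genes took 0.982 to 1.16% of reads in naive libraries, the highest share being that of naive replicate 4, 1.21 to 1.29% at 2 h and 1.12 to 1.28% at 24 h. Every 2 h share lay above every naive share. At 24 h 4 mt- genes rose against naive (mt-Nd1 at 0.34 ± 0.07, mt-Nd5, mt-Nd6 at 0.36 ± 0.10 and mt-Co1 at 0.16 ± 0.05), 0 fell and 9 did not pass, where 25.3% of all genes tested were called higher. The median was 0.11, and with any library left out it ranged from 0.08 to 0.21 and the number that rose from 3 to 6. The call for mt-Co1 (limma adjusted p = 0.0238) was lost with the sign kept in 6 of 25 other settings. Quantile normalisation, not among those 6, gave a log2 fold change of 0.00 with the sign turned. Between 2 h and 24 h mt-Cytb fell and 12 mt- genes did not pass, and 0 rose in limma, at an unadjusted p under 0.05 or with voom. Among the 7 mt- genes without an annotated copy of at least 99% identity, 4 rose at 2 h and 4 at 24 h, with medians of 0.31 and 0.16. Of the 6 genes with such a copy 0 passed in any of the 3 comparisons, and 0 did at an unadjusted p under 0.05 or with voom. All of them but mt-Nd4 had only 3 to 97 reads in a naive library. Apart from mt-Nd4, their standard errors were 0.15 to 0.34, against 0.05 to 0.11 for the 7 others. Changes of the size seen in the 7 others could thus be missed in them. That limit does not cover mt-Nd4, which had 4766 to 6195 reads in a naive library and a standard error of 0.05. Of the 6 genes, mt-Nd4l rose at 2 h without naive replicate 4. Without the naive and 24 h libraries numbered 4, a setting chosen after seeing the data, mt-Co2 and mt-Nd4l did.

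Levels of both genomes were set against each other within each library, as the mean log2(RPKM + 1) of the tested nuclear-encoded members minus that of the mt- genes, in which the library total cancels apart from the pseudocount. It was -2.55 ± 0.13 (SD, n = 4) in naive libraries, -2.82 ± 0.07 at 2 h and -2.30 ± 0.09 at 24 h. The 24 h libraries (-2.40 to -2.19) lay above all others, and the naive (-2.73 to -2.43) and 2 h libraries (-2.88 to -2.72) met at their edges. Against the 7 mt- genes without an annotated near-identical copy the difference was -5.60 ± 0.08 in naive libraries, -5.97 ± 0.02 at 2 h and -5.45 ± 0.09 at 24 h. On that scale the 2 h libraries (-5.99 to -5.95) lay below all others, and the naive (-5.71 to -5.51) and 24 h libraries (-5.57 to -5.36) overlapped. The nuclear-encoded mean itself was 4.61 ± 0.05 in naive libraries, 4.56 ± 0.03 at 2 h and 4.99 ± 0.06 at 24 h, and that of the 7 mt- genes was 10.22 ± 0.13, 10.53 ± 0.05 and 10.44 ± 0.09. The nuclear-encoded means of naive (4.57 to 4.69) and 2 h libraries (4.51 to 4.59) overlapped. Taken as medians over members in place of means, the difference between both genomes moved from naive by -0.48 at 2 h and 0.08 at 24 h, against -0.27 and 0.25 with means over all 13 mt- genes. For nuclear-encoded complex IV alone the mean was 5.31 to 5.42 at 24 h against 5.15 to 5.28 in naive libraries, but with a pseudocount of 0.1 it was 5.02 to 5.23 against 5.04 to 5.17, and the median over members was 5.54 to 5.73 against 5.52 to 5.84, both overlapping.

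**Figure D4:**
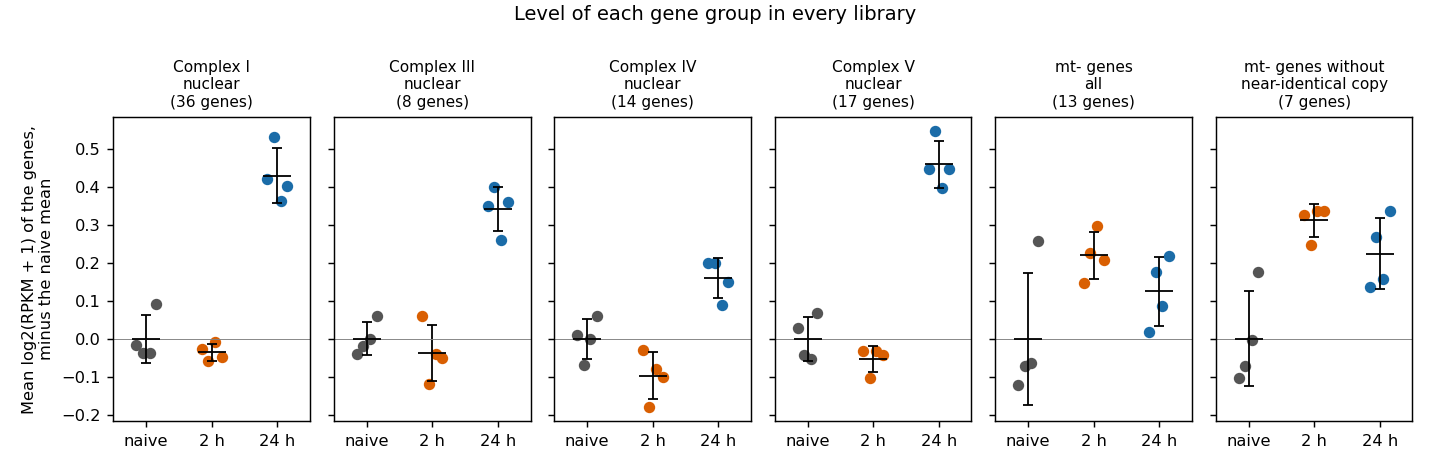
Mean log2(RPKM + 1) of the tested genes of each group in every library, minus the mean of the 4 naive libraries (vertical axis), with bars for the mean and SD of each group of 4. Nuclear-encoded complexes I, III, IV and V are above naive in all 24 h libraries at this pseudocount of 1. The 7 mt- genes without an annotated near-identical copy are above all naive libraries in all 2 h libraries.

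Other genes of the pathway were read from lists. The 7 subunits and carriers that the symbol rule does not reach, Ndufab1 of complex I, Cyc1 of complex III, the electron carrier cytochrome c (Cycs) and the 4 subunits of complex II (Sdha to Sdhd), all rose at 24 h, with a median of 0.51. Of all genes tested, 25.3% were called higher at 24 h. Cycs had 9.05 to 10.2 RPKM in naive libraries, 9.02 to 10.5 at 2 h and 16.1 to 17.8 at 24 h, a log2 fold change at 24 h against naive of 0.73 ± 0.06 (limma adjusted p = 1.15e-06). Its 24 h libraries lay above all others, and naive and 2 h libraries overlapped. Sdha, the flavoprotein of complex II, fell at 2 h, from 43.8 to 46.1 RPKM to 37 to 40.5 (-0.22 ± 0.04, limma adjusted p = 0.0016), and rose at 24 h to 58.9 to 61.2 (0.41 ± 0.04, adjusted p = 8.8e-06). Sdhd rose by 0.49 ± 0.05 at 24 h (limma adjusted p = 9.11e-06), and its call at 2 h (0.15 ± 0.05, adjusted p = 0.0288) was lost in 9 of 25 other settings, among them voom and quantile normalisation.

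Assembly factors, which help build the complexes without staying in them, were tested for 42 list members. At 24 h 20 rose, 1 fell and 21 did not pass, with a median of 0.17, where 25.3% of all genes tested were called higher and 20.6% lower. At 2 h 2 rose and 7 fell, where 14.7% of all genes tested were called higher and 22% lower. Tmem126b, a complex I assembly factor, fell at 2 h from 3.77 to 4.3 RPKM to 1.77 to 2.46 (-0.66 ± 0.07, limma adjusted p = 5.45e-05) and was at 3.76 to 4.3 at 24 h (0.05 ± 0.07, adjusted p = 0.58). Ndufaf2 had a log2 fold change of 0.63 ± 0.16 at 24 h (limma adjusted p = 0.00769) and Cox10, a haem-modifying enzyme needed for complex IV, one of 0.53 ± 0.12 (adjusted p = 0.00287). Uqcc3, a complex III assembly factor, was the one that fell at 24 h (-0.40 ± 0.13, adjusted p = 0.0217). That call was lost without naive replicate 2 and without 24 h replicate 2 or 3.

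Genes for the expression and upkeep of mitochondrial DNA and RNA were tested for 22 of 24 list members. At 24 h 9 rose, 1 fell and 12 did not pass, and at 2 h 0 rose and 4 fell, beside the same shares of all genes tested. Tfam, which packages mitochondrial DNA and starts its transcription, had 3.92 to 4.36 RPKM in naive libraries, 3.36 to 3.99 at 2 h and 5.02 to 6.26 at 24 h (0.33 ± 0.07 at 24 h, limma adjusted p = 0.00205). Polrmt, the mitochondrial RNA polymerase, had log2 fold changes of -0.09 ± 0.09 at 2 h and -0.01 ± 0.09 at 24 h, neither past the threshold. Pnpt1, a subunit of the mitochondrial RNA degradosome, fell at 2 h (-0.44 ± 0.08, limma adjusted p = 0.00107) and rose at 24 h (0.35 ± 0.08, adjusted p = 0.00264).

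Of 9 regulators known to act on nuclear genes of respiration 7 were tested. At 24 h 1 rose (Gabpb1, 0.23 ± 0.07, limma adjusted p = 0.0148) and 6 did not pass. Of all genes tested, 25.3% were called higher and 20.6% lower at 24 h. At 2 h Pprc1 and Gabpb1 rose and Yy1 and Gabpa fell, where 14.7% of all genes tested were called higher and 22% lower. Pprc1, a coactivator related to PGC-1alpha, rose at 2 h from 2.61 to 3.66 RPKM to 3.85 to 5.72 (0.47 ± 0.11, limma adjusted p = 0.00715) and was at 3.07 to 3.49 at 24 h. Yy1, a zinc-finger transcription factor, fell at 2 h from 22 to 26.1 RPKM to 15.8 to 20.3 (-0.43 ± 0.08, limma adjusted p = 0.00163) and was at 22.3 to 24.9 at 24 h. Gabpa, an ETS factor, fell at 2 h (-0.22 ± 0.06, adjusted p = 0.0111). Ppargc1a, which encodes PGC-1alpha, did not exceed 0.0132 RPKM in any library, and Nrf1, at 0.659 to 0.944 RPKM, was below the filter.

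RefSeq promoters (build GRCm38.p6, 250 bases before the start site and 50 from it on) were available for 63 of the 93 members, all nuclear-encoded. Motifs known from genes of respiration were searched on both strands as exact letters, and a match is a description of the letters and not a site. The NRF1 motif (GCGCA, any base, then GCGC) was found in 15 of 63 member promoters (23.8%), 12.7% of the promoters of genes tested and 5.19% of all 27025 promoters. The ETS motif CCGGAAG, bound by GABP, was found in 22.2% of member promoters and in 22.6% of those of genes tested. The YY1 motif AAGATGGCG was found in 7 (11.1%) against 4.17% of genes tested, and the oestrogen-related receptor motif TCAAGGTCA in 1 (1.59%) against 0.335%. Among the 53 members with a promoter that rose at 24 h the shares were 26.4% for NRF1, 24.5% for ETS, 13.2% for YY1 and 1.89% for the receptor motif. Only 8 tested members with a promoter did not rise. Of these, 1 held the NRF1 motif, 1 the ETS motif and 0 the YY1 or the receptor motif. They are too few to tell whether a motif goes with the rise.

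The promoters of the member of each complex with the largest rise at 24 h among those in the table, and of Cox7a2l, which fell, are printed to show members that moved together and one that did not. Ndufa5 (chr6:24527477-24527776, minus strand, the first of 2 windows for this gene) holds an NRF1 match at -190 from the start site, which is counted as 0. Uqcrc1 (chr9:108936398-108936697, plus strand) holds NRF1 matches at 5 and 30. Atp5k (chr5:108434350-108434649, minus strand) holds an NRF1 match at -50 and an ETS match at 12. Cox5b (chr1:36691237-36691536, plus strand) and Cox7a2l (chr17:83514284-83514583, minus strand) hold 0 matches to the 4 motifs in these windows. Sequences run 5′ to 3′ on the gene's strand, and capitals mark the motif matches.
Ndufa5: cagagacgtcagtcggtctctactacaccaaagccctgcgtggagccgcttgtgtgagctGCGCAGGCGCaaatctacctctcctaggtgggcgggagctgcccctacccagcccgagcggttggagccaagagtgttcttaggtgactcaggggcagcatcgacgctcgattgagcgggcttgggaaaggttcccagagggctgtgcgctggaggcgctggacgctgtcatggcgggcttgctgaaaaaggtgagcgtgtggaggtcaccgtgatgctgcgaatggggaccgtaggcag
Uqcrc1: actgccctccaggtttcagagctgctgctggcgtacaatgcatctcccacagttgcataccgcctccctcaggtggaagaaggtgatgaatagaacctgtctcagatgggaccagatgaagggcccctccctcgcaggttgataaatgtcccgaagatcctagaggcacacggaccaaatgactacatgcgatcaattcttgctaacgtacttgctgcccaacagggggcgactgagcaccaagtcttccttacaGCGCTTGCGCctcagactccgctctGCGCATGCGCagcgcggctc
Atp5k: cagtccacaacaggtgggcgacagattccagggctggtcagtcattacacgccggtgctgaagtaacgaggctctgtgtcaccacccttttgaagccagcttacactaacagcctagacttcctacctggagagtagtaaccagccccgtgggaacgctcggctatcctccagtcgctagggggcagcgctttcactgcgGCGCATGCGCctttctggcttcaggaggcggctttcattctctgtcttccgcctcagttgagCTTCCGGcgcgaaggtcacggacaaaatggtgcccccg
Cox5b: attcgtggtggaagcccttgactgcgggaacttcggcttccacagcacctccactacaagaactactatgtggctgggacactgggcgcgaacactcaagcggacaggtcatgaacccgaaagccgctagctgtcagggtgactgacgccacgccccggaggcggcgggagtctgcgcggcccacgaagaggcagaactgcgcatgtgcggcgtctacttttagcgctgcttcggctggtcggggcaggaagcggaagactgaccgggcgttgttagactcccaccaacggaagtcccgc
Cox7a2l: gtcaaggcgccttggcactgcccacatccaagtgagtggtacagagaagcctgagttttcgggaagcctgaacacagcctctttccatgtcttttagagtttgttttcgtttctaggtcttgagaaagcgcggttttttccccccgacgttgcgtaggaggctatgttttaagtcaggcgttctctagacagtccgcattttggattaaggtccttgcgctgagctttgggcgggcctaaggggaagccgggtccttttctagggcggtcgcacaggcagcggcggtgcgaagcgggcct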

How the data were processed

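RNA-seq of alveolar macrophages was analysed for 12 libraries, 4 per group, grouped by the labels' time point. The authors deposited RPKM values per Ensembl gene. The submitters' processing notes name bcl2fastq, TopHat2, HTSeq and the mm10 build. Versions, annotation, strand setting and the handling of reads with several alignments are not stated in the sources used here.

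RPKM steps gave whole reads, within 0.02 of a read, for 11417 of 11419 tested genes, and the library totals. A gene of 1 kb with 3 reads, the limit that a count of 0 allows, had 0.25 to 0.491 RPKM. Such limits cover counting error only. Symbols, positions, biotypes and exon overlaps came from GENCODE vM21 on the same assembly. The members and lists were chosen with earlier results of these data known.

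Genes that reached 1 RPKM in 4 or more libraries were fitted on log2(RPKM + 1) with limma 3.58.1 in R 4.3.3, using all 12 libraries, two-sided moderated tests and a trend of variance with level. Benjamini-Hochberg adjustment ran over all 11419 genes, with a threshold of 0.05. Errors beside log2 fold changes are standard errors. The pseudocount of 1 understates changes of low genes, and ratios are of mean RPKM. The genes named are all mt- genes, those with the smallest p-values and largest changes per complex, those that passed against their complex, and fixed list members. A few further members were named after their values were seen. Some complex I values are not reported here. The steps were tested on simulated data. Near-identical copies of coding sequences were searched with BLAST 2.17.0 among annotated transcripts, at 90% identity over 50% of the sequence. Other settings covered the pseudocount, filter, scaling, variance trend, groups fitted, replicate block, voom on recovered reads and each library left out.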

Additional observations from a re-analysis of the deposited data

Results flagged for a closer look

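Among 132 groups of 4 libraries, 3 for each of 44 named members, 8 held a library that stood far from the other 3 by Dixon's criterion, and chance flags about 1 in 20 groups. Low libraries were found for 4 genes: Atp5c1 at 25.1 RPKM in 24 h replicate 1 against 27 to 27.4, Atp5f1 at 23.8 in naive replicate 1 against 25.4 to 25.5, Cox7a2 at 60.6 in naive replicate 3 against 65.7 to 66.3, and Ndufa6 at 65.4 in 24 h replicate 3 against 70 to 70.8. Cox5a was high in naive replicate 4, at 208 RPKM against 177 to 181. Cox7a2l was lowest in 24 h replicate 2, at 37.9 RPKM against 47.1 to 48.1, and its log2 fold change against naive ranged from -0.64 to -0.53 with any library left out. Cox6b2 was low in the same library, at 1.95 RPKM against 3.52 to 3.84, and Cox6a2 had 0.666 RPKM in 24 h replicate 4 and 0 in the other 3 libraries at 24 h.

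Outside the members, the pseudogene Gm28438, the chromosome 1 copy of mt-Nd3, had a mean of 4.82 RPKM at 2 h (2.26 to 7.42) against 0 to 1.32 in naive libraries and 0.242 to 0.913 at 24 h. Its neighbour Gm10222, the copy of mt-Nd4l, had 0.662 to 3.96 RPKM at 2 h and 0 to 0.429 in naive libraries. Gm10222 was below the filter and was not tested, and over its 294 bases such values rest on few reads. Gm28438 aligned to mt-Nd3 with 1 difference over 345 bases, and Gm10222 to mt-Nd4l with 0 over 294 bases. Reads that lie within identical bases cannot be told apart between a copy and its mt- gene. The values therefore do not show expression of the nuclear copies, and the part of mt- reads in them was not tested.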

How the results depend on the processing

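Counts of nuclear-encoded members at 24 h held under the other settings. Leaving out any library, 61 to 65 rose against naive and 3 fell. Changes were seen mostly where counts were small. At 2 h against naive, complex III had 2 members higher with median-ratio scaling and 0 with quantile normalisation, equal RPKM sums, equal sums without mt- genes, no variance trend, 2 groups alone, the replicate block, voom, or without the naive and 24 h libraries numbered 4 (chosen after seeing the data), and 2 lower with the block. Nuclear-encoded members higher were 4 with median-ratio scaling and 1 under those other settings, and 3 were lower without the libraries numbered 4. Complex I had 2 lower with equal RPKM sums. Complex V had 1 higher with median-ratio scaling and 1 lower with no filter, a filter of 5 RPKM, median-ratio scaling, no variance trend, 2 groups alone or voom, and 0 without the libraries numbered 4. mt- genes higher were 7 with median-ratio scaling and 9 without the libraries numbered 4, with a median of 0.10 under quantile normalisation. With the filter of 5 RPKM, which tests fewer genes, 1544 genes were lower at 2 h, and at 24 h against 2 h 2307 were higher and 1616 lower.

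At 24 h against naive, the medians of complexes III and V were 0.31 and 0.42 under quantile normalisation, that of complex IV 0.42 without the libraries numbered 4, and 2 mt- genes were higher with no filter. At 24 h against 2 h, 1 complex IV and 1 nuclear-encoded member was lower with no filter, the 5 RPKM filter, 2 groups alone or the block. mt- genes lower were 0 with no filter or quantile normalisation and 2 with median-ratio scaling, the block or without the libraries numbered 4. Under quantile normalisation mt-Co1 (24 h against naive) had 0.00 and mt-Cytb (24 h against 2 h) 0.03. With medians over members, the nuclear-encoded minus mt- level moved by -0.48 at 2 h and 0.08 at 24 h. The causes were not tested.

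Leaving out 1 library at a time, counts ranged at 2 h from 0 to 1 (complex III higher), 1 to 2 (complex V lower, nuclear-encoded higher) and 4 to 8 (mt- higher), the 24 h complex IV median from 0.27 to 0.39, and complex IV and nuclear-encoded members lower at 24 h against 2 h from 1 to 2. Replicate numbers gave no sign of pairing, with correlations of -0.0426 to 0.0548 for same-numbered libraries and -0.129 to 0.0777 for others. Such values cannot exclude a pairing. Genes of fewer than about 3 reads per library cannot be compared at this depth.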
